A study of Mus musculus with 24 samples.

Results

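The 34 genes described here encode ionotropic and metabotropic glutamate receptors and the transmembrane proteins that accompany them at synapses. They were chosen by name from the 46983 genes of a read count table of female mouse hippocampus, and all 34 were found. They comprise 4 AMPA receptor subunits, 6 NMDA receptor subunits, 5 kainate receptor subunits, 1 delta receptor, 6 metabotropic receptors, 6 TARP, 2 cornichon, 2 Neto and 2 Shisa auxiliary subunits. Bulk mRNA was sequenced from frozen punches of dorsal and ventral hippocampus of 24 adult C57BL/6 mice that had been through behavioural testing, with 6 mice in each of 4 groups. Fkbp5lox/lox mice carry floxed Fkbp5 alleles without Cre recombinase, and all 4 groups share the floxed alleles. Fkbp5Nex mice carry in addition Cre recombinase expressed from the Nex (Neurod6) locus, which deletes Fkbp5 in glutamatergic neurons of the forebrain, among them the pyramidal neurons of the hippocampus but not the granule cells of the dentate gyrus, so that Fkbp5 stays in the other cells of the punch. Mice of each genotype had either been raised under control conditions or exposed to early life stress (ELS) by limited bedding and nesting material in the first days after birth. The labels do not say whether the mice of a group came from separate litters, so p-values measure the spread between these mice.

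Glutamate, the main excitatory transmitter of the forebrain, opens AMPA receptors for fast transmission and NMDA receptors for the calcium entry that underlies many forms of synaptic plasticity, whereas kainate receptors modulate transmission and are prominent at mossy fibre synapses of CA3. Auxiliary subunits set where receptors go and how fast they close: TARPs and cornichons bind AMPA receptors, Neto proteins bind kainate receptors, and Shisa proteins bind AMPA receptors at synapses of the hippocampus. Metabotropic receptors couple to G proteins, with group I mostly postsynaptic and groups II and III mostly presynaptic brakes on transmitter release.

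The genotypes were as labelled, judged by the level of Fkbp5, which cannot check the rearing labels. Fkbp5, the deleted gene, ranged from 47.7 to 63.4 CPM (a gene's counts scaled to the normalised library total) in Fkbp5lox/lox mice and from 8.71 to 26.5 CPM in Fkbp5Nex mice, with every Fkbp5Nex mouse below every Fkbp5lox/lox mouse. Total counts were 18347283 to 26555623 per mouse, of which the 34 genes took 0.516% to 0.641%. In bulk tissue, fewer cells of a type and less RNA per cell cannot be told apart. The punches also differed in markers of subfields and of neighbouring tissue. The summed level of 8 genes that mark dentate gyrus granule cells ran from 300.4 to 1329 CPM, and that of 8 genes that mark thalamic neurons from 50.3 to 318 CPM, with no marker at 0 in every mouse. Mouse 8 (Fkbp5lox/lox ELS), mouse 12 (Fkbp5Nex control) and mouse 44 (Fkbp5lox/lox control) each stood apart on some marker lists but not on all. The main values that they touch are also given without them. On the thalamic markers mouse 78 (Fkbp5lox/lox ELS), at 301 CPM, and mouse 66 (Fkbp5Nex ELS), at 273 CPM, were high too. Those mice are not among the 3 left out together.

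The promoters of the members were searched for short motifs in RefSeq windows (GRCm38.p6) that run from 250 bases before to 50 bases after the annotated start. The motifs were the E-box CANNTG, which TCF4, NEUROD6 and related factors bind, and 3 others. RefSeq windows were matched for 22 of the 34 genes, 27 windows in all, and 17 of the 27 held CANNTG on either strand against 72.3% of all 32851 windows. The narrower form CAGATG, itself a CANNTG match, was in 2 of the 27 against 17.2% of all windows, the cyclic AMP response element TGACGTCA in 0 against 1.79%, and the palindromic glucocorticoid response element in 0 against 0.00913%. The median GC content was 63.7% for the 27 windows and 52.7% for all windows. A match is a description of these letters in this window and says nothing of binding.

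Levels per length, given as FPKM (CPM per kilobase of exons of all annotated transcripts), placed an auxiliary subunit and an AMPA subunit at the top of the family. Cnih2, a cornichon that promotes surface delivery of AMPA receptors and slows their closing, had the highest level at 259 ± 38.1 FPKM (SD, n = 24). Gria1 (GluA1) followed at 182 ± 9.22 FPKM and Gria2 (GluA2), the subunit whose edited form blocks calcium entry, at 73.1 ± 6.44 FPKM. The order Cnih2, Gria1, Gria2 held in 24 of 24 mice. At the other end stood Grm8, a presynaptic group III receptor, at 0.393 FPKM with 26 to 187 counts per mouse, and Grm4, of the same group, at 1.18 FPKM. Many neighbours in the middle of the order did not differ beyond the spread between mice, for example Grin2b above Neto1 in 12 of 24 mice and Grin2a above Grik4 in 12 of 24. The order depends in part on the transcript length used. With the longest coding transcript the same 3 genes led and Grin1 stood at rank 4, whereas with the median coding transcript Grin2b, which has short annotated transcripts, stood at rank 1.

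**Figure D1:**
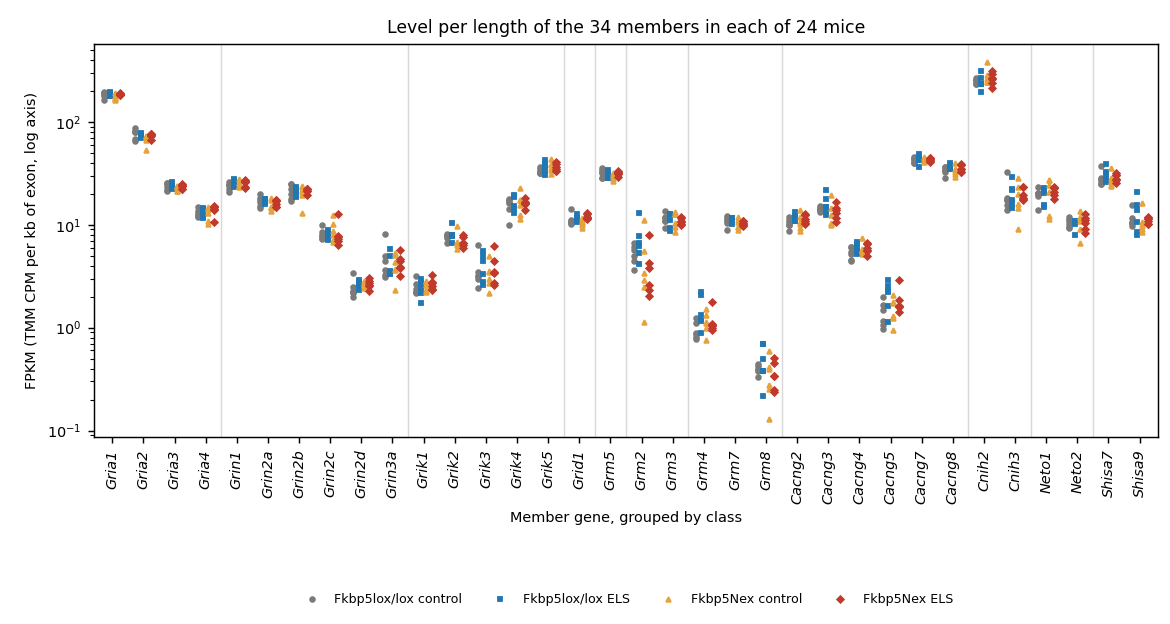
Level per length (FPKM, log axis) of the 34 genes, grouped by class along the horizontal axis, with 1 point per mouse and colours and symbols for the 4 groups. Cnih2 and Gria1 lie above all other genes and Grm8 below, and the points of the 4 groups overlap for every gene.

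The leading member of a class depended in part on the length used, as given here first for the exon union. Of the AMPA subunits' summed FPKM, Gria1 took 62.4% ± 1.09 (SD, n = 24), Gria2 25.04%, Gria3 8.01% and Gria4 4.57%. With the longest coding transcripts Gria1 took 53.9% and Gria2 29.8%, and with the median coding transcripts 44.6% and 34.5%. Of the NMDA subunits, the obligatory subunit Grin1 (GluN1) took 32.2%, Grin2b (GluN2B) 26.97% and Grin2a (GluN2A) 21.3%, but Grin1 took 48.3% and Grin2b 18.5% with the longest coding transcripts and 12.8% and 70.4% with the median ones, so that the order of these subunits is not settled by these counts. The kainate subunits were led by Grik5 (GluK5) at 54.5% and Grik4 (GluK4) at 24.5%, which form channels only together with Grik1 to Grik3. Grik2 took 11.4%. With the median coding transcripts Grik5 took 43.4%, Grik2 30.5% and Grik4 18.2%, so that the second place depends on the length used. Among TARPs, Cacng7 took 38.9%, Cacng8, the TARP typical of hippocampal pyramidal neurons, 31.5%, Cacng3 12.7% and Cacng2 (stargazin) 10.0%. With the median coding transcripts Cacng8 took 35.2%, Cacng7 28.2%, Cacng3 25.5% and Cacng2 6.6%. Grm5, the group I receptor, took 52.1% of the 6 metabotropic receptors, and the share of Grm2 varied most, from 2.23% to 18.6% of the class among the 24 mice.

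Variation between mice of the same group differed widely among the 34 genes. The median within-group SD on the log2 CPM scale was 0.196 over the 34 genes and 0.183 over all 16209 tested genes. Gria1 had the smallest SD of the 34, 0.0654, at the 1.39 percentile of all genes, followed by Gria3 (0.0855), Cacng7 (0.0906) and Grm5 (0.0995). Grm2, a group II receptor known from perforant path and mossy fibre terminals, had the largest at 0.735, at the 98.5 percentile, with an 11.4-fold range over the 24 mice. Grm8 (0.531), Grik3 (0.451), Cacng5 (0.418), Cnih3 (0.410) and Grin3a (0.405) came next.

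The 7 comparisons asked whether the deletion, ELS, or the combination altered transcription, and none of the 34 genes passed the false discovery rate (FDR) of 0.02 in edgeR's quasi-likelihood test. For genotype over both rearing conditions, 0 of 34 were called, against 19 of all 16209 tested genes (0.117%). For ELS over both genotypes, for the interaction, and for ELS in Fkbp5lox/lox and in Fkbp5Nex mice, 0 of 34 were called and 0 of all genes (0%). For genotype under control rearing 0 of 34 were called against 8 of all genes (0.0494%), and after ELS 0 of 34 against 2 (0.0123%). At an unadjusted p under 0.05, the 34 genes gave 3 for genotype, where 11.5% of all genes did, 2 for ELS (3.56%), 1 for the interaction (4.02%), 2 for ELS in Fkbp5lox/lox (4.86%), 2 for ELS in Fkbp5Nex (2.8%), 5 for genotype under control rearing (8.69%) and 3 after ELS (6.59%). DESeq2's Wald test at the same FDR called 1 of 34 for genotype, Grm2, where it called 70 of all genes (0.432%), and 0 of 34 in the other 6 comparisons, where its share of all genes was 0.00617% for ELS in Fkbp5lox/lox, 0.327% for genotype under control rearing, 0.0247% for genotype after ELS and 0% in the other 3. Without surrogate variables 0 of 34 were called for genotype, against 3 of all genes (0.0185%). For none of the 34 genes were all 6 mice of a group on one side of all 6 mice of the compared group, in any of the 4 pairwise comparisons. Over all genes this held for 0.0925% in ELS in Fkbp5lox/lox, 0.0679% in ELS in Fkbp5Nex, 0.16% in genotype under control rearing and 0.173% in genotype after ELS.

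The direction of the fitted log2 differences was also counted. Of all tested genes, 51.4% were positive for ELS in Fkbp5lox/lox, 52.3% for ELS in Fkbp5Nex and 52.2% for ELS over both genotypes. The share was 49.2% for genotype over both rearing conditions, 48.9% for genotype after ELS and 50% for the interaction. ELS over both genotypes gave 23 positive and 11 negative among the 34 genes, with a median of 0.0305 beside 0.0032 for all tested genes. After ELS in Fkbp5lox/lox mice, 24 of the 34 log2 differences were positive and 10 negative, and their median was 0.0475 beside 0.0025 for all tested genes. In Fkbp5Nex mice the same contrast gave 17 positive and 17 negative, with a median of -0.0024 beside 0.0037. Genotype over both rearing conditions gave 14 positive and 20 negative, with a median of -0.0095 beside -0.0013, and genotype after ELS 10 positive and 24 negative, with a median of -0.0284 beside -0.0024. The interaction, here the log2 difference for ELS in Fkbp5lox/lox minus that in Fkbp5Nex, was positive for 23 and negative for 11, with a median of 0.049 beside 0. Without surrogate variables, which are the 5 unnamed axes of variation between mice that the fit removes, ELS in Fkbp5Nex gave 25 positive and 9 negative, with a median of 0.0517, and genotype after ELS 15 positive and 19 negative. ELS over both genotypes then gave 29 positive and 5 negative, with a median of 0.0527, where 49.5% of all tested genes were positive. With the dentate gyrus marker score as covariate in place of the surrogate variables, genotype after ELS gave 19 positive and 15 negative, with a median of 0.0104, and genotype over both rearing conditions 18 and 16, with a median of 0.0109, so that both medians turned in direction. Comparisons that share a group share its mice, so these counts are not independent of each other.

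**Figure D2:**
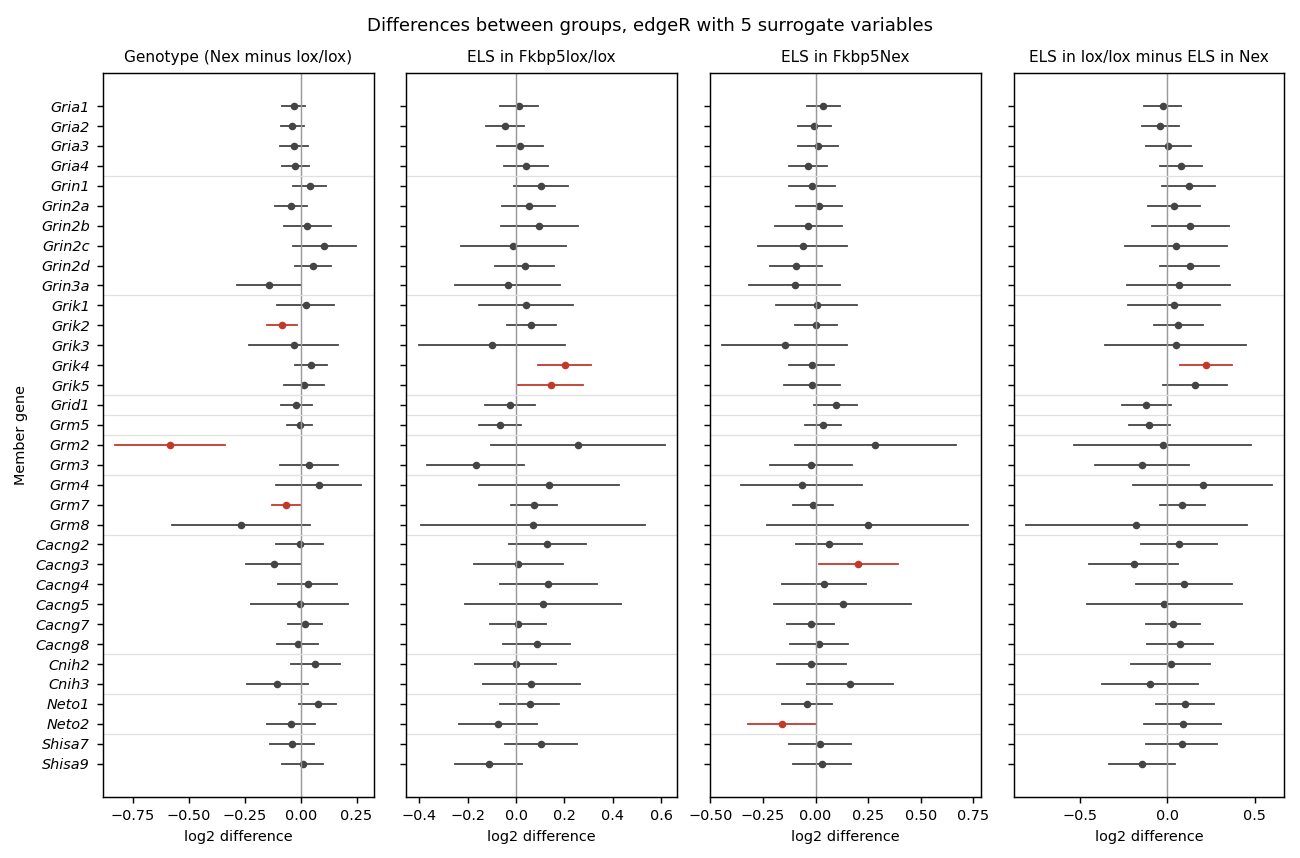
Log2 difference with its 95% confidence interval for each of the 34 genes in 4 comparisons (edgeR with 5 surrogate variables), with genes in rows grouped by class and red marking an unadjusted p under 0.05. Intervals of most genes include 0, the interval of Grm2 for genotype runs from -0.83 to -0.34, and no gene passed the FDR of 0.02.

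Grm2, the presynaptic group II receptor mGlu2, was the member nearest to the threshold, with lower values in Fkbp5Nex mice. Its lowest, median and highest levels were 17.7, 26.1 and 32.2 CPM in Fkbp5lox/lox controls and 20.2, 31.3 and 63.6 CPM in Fkbp5lox/lox ELS mice. In Fkbp5Nex mice they were 5.57, 15.4 and 54.3 CPM under control rearing and 10.0, 15.6 and 38.8 CPM after ELS. The genotypes overlapped: 7 of 12 Fkbp5Nex mice lay below every Fkbp5lox/lox mouse and 10 of 12 below the Fkbp5lox/lox median, while mouse 12 was the highest of its group and lay above every Fkbp5lox/lox control. The log2 difference for genotype was -0.58 (SE 0.12, 95% interval -0.83 to -0.34, edgeR unadjusted p = 6.7e-05, adjusted p = 0.0362), rank 30 by p among all genes. DESeq2 gave -0.59 with an adjusted p of 0.014. By rearing condition edgeR gave -0.60 (SE 0.17, adjusted p = 0.219) under control rearing and -0.57 (SE 0.17, adjusted p = 0.591) after ELS, and the difference between them was -0.03 with an interval of -0.53 to 0.48. Leaving out 1 mouse at a time moved the genotype difference between -0.70 and -0.47. The edgeR adjusted p ranged from 0.00588 without mouse 54 (Fkbp5Nex control) to 0.719 without mouse 12, and it also fell under the FDR, to 0.0193, without mouse 56 (Fkbp5lox/lox ELS). In GENCODE vM21 (GRCm38), 9.60% of the exon bases of Grm2 are shared with a gene on the opposite strand, whose reads cannot be told apart here.

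Markers of dentate gyrus granule cells, which the Nex driver does not target, moved in the same direction as Grm2. All 8 of these markers had a negative log2 difference for genotype, and 3 passed the FDR of 0.02 in edgeR, namely Npnt (-0.69, adjusted p = 8.4e-05), Prox1, the transcription factor that defines these cells (-0.49, adjusted p = 0.000328), and Dsp (-1.07, adjusted p = 0.000328). The summed level of the 8 had its lowest, median and highest values at 466, 569 and 747 CPM in Fkbp5lox/lox controls, 394, 638 and 1329 CPM in Fkbp5lox/lox ELS mice, 300.4, 348 and 974 CPM in Fkbp5Nex controls and 320.1, 394 and 681 CPM in Fkbp5Nex ELS mice. With the mean z-score of these markers as covariate in place of the surrogate variables, the genotype difference of Grm2 was -0.01 (SE 0.17), that under control rearing 0.18 and that after ELS -0.20. Without mice 8, 12 and 44 it was -0.63 (adjusted p = 0.751), with 2 of all genes called. Without surrogate variables it was -0.57 over both rearing conditions, -0.24 under control rearing and -0.91 after ELS. Other marker lists also moved with genotype in the fit with surrogate variables. All 3 tested choroid plexus markers were lower, 1 of them past the FDR. All 8 thalamic, 6 astrocyte, 6 oligodendrocyte, 4 microglial and 4 endothelial markers were higher, with 0 past it. The remaining lists were mixed. The part of any of these cell types in the level of Grm2 was not tested.

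Of the kainate subunits, Grik2 (GluK2) had the next smallest p for genotype. Its lowest, median and highest levels were 88.2, 103 and 108 CPM in Fkbp5lox/lox controls, 88.5, 104 and 136 CPM in Fkbp5lox/lox ELS mice, 77.2, 88.8 and 129 CPM in Fkbp5Nex controls and 78.2, 88.2 and 105 CPM in Fkbp5Nex ELS mice. The groups overlapped, with 10 of 12 Fkbp5Nex mice below the Fkbp5lox/lox median and the 2 high values in mice 8 and 12. The log2 difference was -0.08 (SE 0.03, edgeR adjusted p = 0.312) over both rearing conditions and -0.12 (SE 0.05, adjusted p = 0.713) after ELS. Without mouse 12 the former was 0.0094, without mice 8, 12 and 44 it was -0.04, and with the dentate gyrus score as covariate -0.0023. Grm7, a presynaptic group III receptor, was the only other gene of the 34 with an unadjusted p under 0.05 for genotype in edgeR (-0.07, SE 0.03, adjusted p = 0.427). Its levels spanned 52.4 to 70.8 CPM over the 24 mice. Of the Fkbp5Nex mice, 11 of 12 lay below its Fkbp5lox/lox median and 0 below every Fkbp5lox/lox mouse.

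Under control rearing, Cacng3 (TARP gamma-3) had lower values in Fkbp5Nex mice. Its lowest, median and highest levels were 37.0, 39.2 and 42.0 CPM in Fkbp5lox/lox controls, 34.7, 41.1 and 60.6 CPM in Fkbp5lox/lox ELS mice, 27.6, 31.9 and 53.9 CPM in Fkbp5Nex controls and 29.7, 37.3 and 46.3 CPM in Fkbp5Nex ELS mice. Among controls, 4 of 6 Fkbp5Nex mice lay below all Fkbp5lox/lox mice and mouse 12 lay above all of them. The log2 difference under control rearing was -0.22 (edgeR unadjusted p = 0.0174, adjusted p = 0.467), without mice 8, 12 and 44 it was -0.26, and with the dentate gyrus score as covariate 0.10. For ELS within Fkbp5Nex mice Cacng3 had the smallest p of the 34, at 0.20 (SE 0.09, unadjusted p = 0.0359, adjusted p = 0.9996 in edgeR), and 0.06 with that covariate. The other genes with an unadjusted p under 0.05 for genotype under control rearing were Grik4 (0.15), Neto1 (0.12) and Grin2d (0.12). For Grik4 this value lay between 0.04, without mouse 28 (Fkbp5lox/lox control), and 0.24 when 1 mouse was left out. With the dentate gyrus covariate it was -0.14 for Grik4 and -0.27 for Neto1, and without mice 8, 12 and 44 it was -0.02 for Grin2d.

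In Fkbp5lox/lox mice exposed to ELS, the smallest p among the 34 genes belonged to Grik4 (GluK4), the high-affinity kainate subunit abundant in CA3 neurons. Its lowest, median and highest levels were 58.9, 98.1 and 106 CPM in Fkbp5lox/lox controls, 77.3, 100.2 and 115 CPM in Fkbp5lox/lox ELS mice, 67.3, 98.4 and 135 CPM in Fkbp5Nex controls and 83.5, 97.1 and 108 CPM in Fkbp5Nex ELS mice. The groups overlapped, with 3 of 6 Fkbp5lox/lox ELS mice above all controls and 3 of 6 below the control median, and mouse 44 was the lowest of all 24. The fitted log2 difference was 0.20 (SE 0.05, 95% interval 0.09 to 0.31, edgeR unadjusted p = 0.00093, adjusted p = 0.954) in Fkbp5lox/lox and -0.02 (SE 0.05) in Fkbp5Nex mice. The test of the difference between these gave 0.22 (SE 0.07, interval 0.07 to 0.37, unadjusted p = 0.00552, adjusted p = 0.9995). Without surrogate variables the difference in Fkbp5lox/lox mice was 0.10 (edgeR unadjusted p = 0.507, adjusted p = 0.9995) and the interaction 0.09, and without mice 8, 12 and 44 the former was 0.12 (unadjusted p = 0.181). Leaving out 1 mouse at a time gave 0.09 to 0.22 for ELS in Fkbp5lox/lox, lowest without mouse 30 (Fkbp5lox/lox control) or mouse 8, and 0.09 to 0.28 for the interaction, lowest without mouse 30.

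Grik5, the partner subunit with the highest level of the class, gave the second smallest p for ELS in Fkbp5lox/lox mice. Its lowest, median and highest levels were 164, 168 and 188 CPM in Fkbp5lox/lox controls, 155, 190 and 220 CPM in Fkbp5lox/lox ELS mice, 162, 191 and 223 CPM in Fkbp5Nex controls and 171, 183 and 212 CPM in Fkbp5Nex ELS mice. Of the Fkbp5lox/lox ELS mice, 4 of 6 lay above all their controls and 1 below. The log2 difference was 0.14 (SE 0.06, edgeR unadjusted p = 0.0389, adjusted p = 0.954) in Fkbp5lox/lox mice, and the interaction was 0.16 (SE 0.09, adjusted p = 0.9995). Neto2, a kainate receptor auxiliary subunit, spanned 56.9 to 72.6 CPM in Fkbp5lox/lox controls, 48.8 to 67.1 CPM in Fkbp5lox/lox ELS mice, 40.9 to 83.3 CPM in Fkbp5Nex controls and 50.7 to 77.2 CPM in Fkbp5Nex ELS mice, with medians of 64.3, 65.1, 68.3 and 65.8 CPM. Its fitted log2 difference for ELS in Fkbp5Nex was -0.16 (SE 0.08, edgeR unadjusted p = 0.0494, adjusted p = 0.9996), although the medians lay close together, it was -0.12 without mice 8, 12 and 44, and without surrogate variables it was -0.0043.

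**Figure D3:**
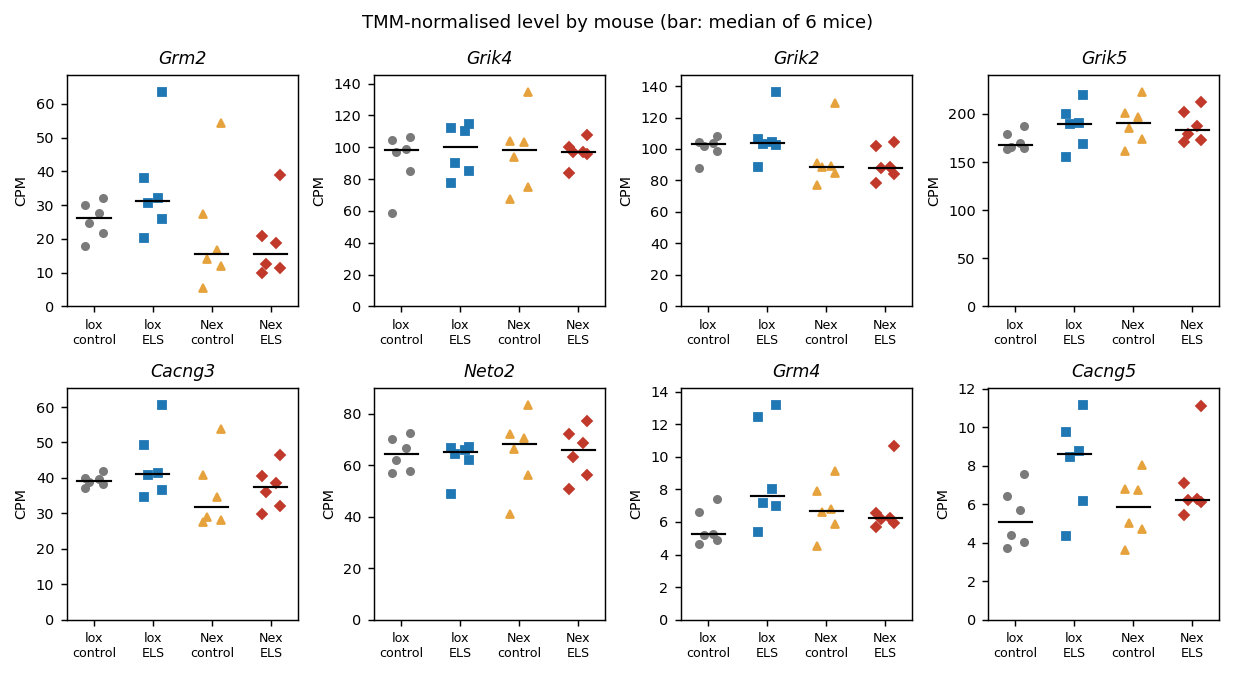
TMM-normalised CPM of 8 of the 34 genes in each mouse (points) with the median of 6 mice (bar), by group along the horizontal axis. For Grm2, 7 of 12 Fkbp5Nex mice lie below every Fkbp5lox/lox mouse while mouse 12 is at 54.3 CPM, and for all 8 genes the groups overlap.

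In the fit with surrogate variables, AMPA receptor subunits had small differences with narrow intervals. Gria1 had its lowest, median and highest levels at 994, 1134 and 1187 CPM in Fkbp5lox/lox controls, 1070, 1118 and 1175 CPM in Fkbp5lox/lox ELS mice, 986, 1039 and 1140 CPM in Fkbp5Nex controls and 1100.2, 1121 and 1142 CPM in Fkbp5Nex ELS mice. These ranges overlapped in every comparison. Gria2 had medians of 1232, 1162, 1097 and 1167 CPM in the same order. All 6 Fkbp5Nex controls, and all 6 Fkbp5lox/lox ELS mice, lay below the Fkbp5lox/lox control median of Gria2. For genotype under control rearing the fit gave the 4 subunits log2 differences between -0.06 and 0.01. For genotype the log2 differences of the 4 subunits lay between -0.04 and -0.02, with SE up to 0.03, and for ELS in Fkbp5lox/lox between -0.05 and 0.04, with SE up to 0.05. The 95% interval of Gria1 for genotype was -0.08 to 0.02. Of the NMDA subunits, Grin1 spanned 202 to 250 CPM in Fkbp5lox/lox controls, with a median of 235, and 226 to 270 CPM in Fkbp5lox/lox ELS mice, with a median of 251. In Fkbp5Nex mice Grin1 had medians of 239 CPM under control rearing and 251 CPM after ELS. The 6 NMDA subunits had log2 differences for ELS in Fkbp5lox/lox between -0.04 and 0.10, and Grin3a, a subunit that lowers calcium permeability, had the largest for genotype at -0.14 (SE 0.07, edgeR unadjusted p = 0.0536).

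The remaining class leaders overlapped between groups likewise. Cnih2 had medians of 344, 320, 360 and 358 CPM in Fkbp5lox/lox control, Fkbp5lox/lox ELS, Fkbp5Nex control and Fkbp5Nex ELS mice within a range of 266 to 527 CPM, and Cacng7 medians of 103, 105, 103 and 105 CPM within 89.1 to 120 CPM. In the same order Neto1, which binds kainate receptors and associates with NMDA receptors, had medians of 168, 174, 188 and 182 CPM, and Shisa7 182, 195, 175 and 192 CPM. Grm5 had medians of 328, 305, 302 and 326 CPM, Grm3, a group II receptor abundant in astrocytes, 34.3, 31.2, 35.2 and 32.7 CPM, and Grid1, a delta receptor that binds cerebellins rather than glutamate, 64.003, 68.4, 62.4 and 70.4 CPM. For Grid1, 5 of 6 Fkbp5Nex ELS mice lay above all Fkbp5Nex controls, and 0 of 6 Fkbp5lox/lox ELS mice above all theirs. Its log2 difference for ELS was 0.09 (SE 0.05) in Fkbp5Nex and -0.03 (SE 0.05) in Fkbp5lox/lox mice. None of the 7 genes of this paragraph passed the FDR in any comparison.

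Ratios of subunits that set receptor properties were tested within each mouse's own counts. The count ratio of Gria1 to Gria2 had a median of 0.959 over the 24 mice, from 0.882 to 1.18, that of Grin2a to Grin2b, which shifts from Grin2b towards Grin2a as the forebrain matures, 0.552, from 0.482 to 0.764, and that of Cnih3 to Cnih2 0.143, from 0.0651 to 0.276. Among 6 ratios and 4 contrasts, none of 24 exact two-sided permutation tests reached 0.05. The smallest p was 0.176 (adjusted 0.894), for a log2 difference in Gria3 to Gria2 of 0.07 between genotypes, while the arrangements within a genotype allow p as small as 0.00216. Grin2a to Grin2b differed by -0.09 on the log2 scale between genotypes (exact permutation p = 0.204), and Cacng3 to Cacng2 by -0.19 (exact permutation p = 0.205). When 1 mouse was left out, the former ranged from -0.14 to -0.06 with a smallest exact permutation p of 0.0188 (without mouse 52, Fkbp5Nex control), and the latter from -0.28 to -0.12 with a smallest exact permutation p of 0.0322 (without mouse 12). None of these passed after adjustment.

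The levels of many of the 34 genes were related to marker scores of cell types and subfields. Each gene was compared with the scores of 7 marker lists over the 24 mice on deviations from group means, 238 relations in all, with 100000 permutations within groups. Of these, 56 passed an adjusted p of 0.05, 25 positive and 31 negative, and 24 of the 34 genes had at least 1 such relation. The share over all tested genes is not given here, so these counts do not set the 34 genes apart from others. After the 2 mice most distant from a score's median were left out, 31 of 238 passed, and 19 passed both with and without them. The scores are related to each other, the dentate gyrus score to that of CA2 and CA3 with r = -0.65, for example, so that a gene can follow several.

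Shisa9 (CKAMP44), known from AMPA receptors of dentate granule cells, was most closely related to the dentate gyrus score, with Pearson r = 0.898 and Spearman rho = 0.838 (permutation p = 2e-05 and 1e-05, adjusted 0.00179 and 0.00238, n = 24) and r = 0.788 without mice 8 and 12. Cacng3 had r = 0.878 and rho = 0.797 (permutation p = 3e-05 and 9e-05, adjusted 0.00179 and 0.00428) and r = 0.720 without those mice. Grm2 had r = 0.832 and rho = 0.804 (permutation p = 1e-05 and 3e-05, adjusted 0.00179 and 0.00317, the former p being the smallest that these permutations can give) and r = 0.713 without them. The log2 difference of Shisa9 for genotype was 0.01 (SE 0.04) in the fit and -0.16 without surrogate variables. In all, 11 genes passed for this score, 7 positive and 4 negative, and Neto1 (r = -0.745) had the strongest negative relation. For Grik2 (r = 0.756) and Neto2 (r = -0.724) the relation rested on mice 8 and 12, since r was 0.349 and -0.381 without them. The 5 surrogate variables together accounted for 95% of the within-group variance of the dentate gyrus score and 92.6% of that of CA2 and CA3.

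**Figure D4:**
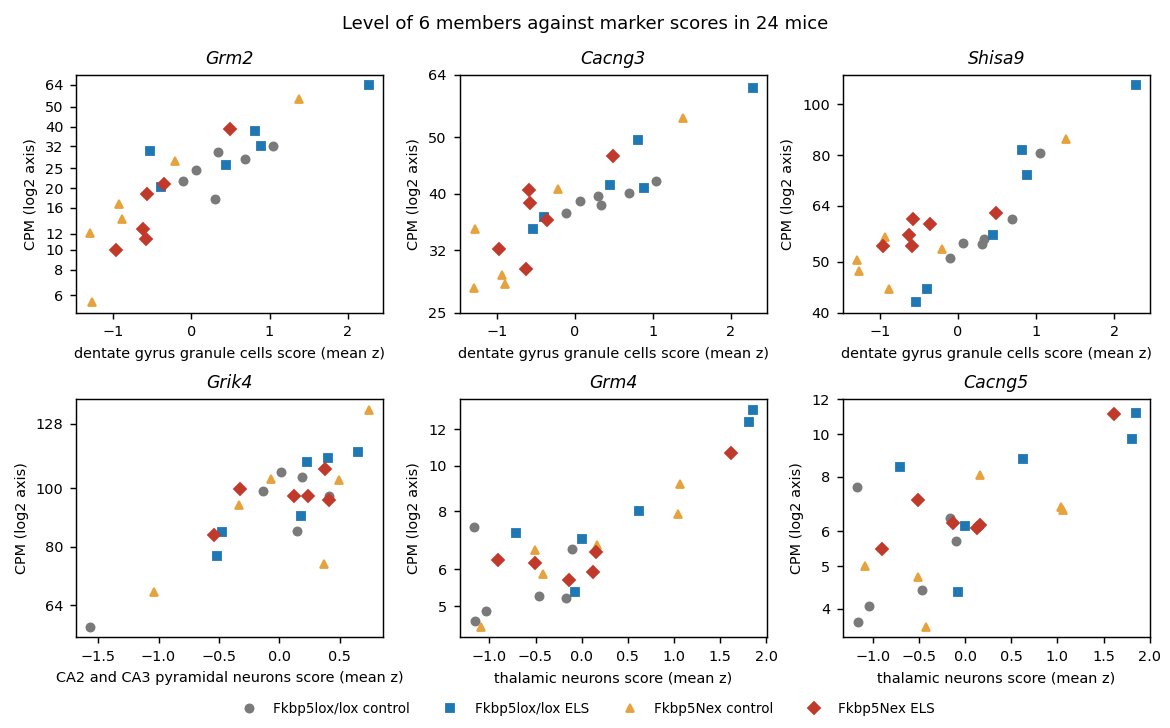
CPM (log2 axis) of 6 genes against the marker score each was most closely related to (mean z-score of TMM log2 CPM), with 1 point per mouse and colours and symbols for the 4 groups. Grm2, Cacng3 and Shisa9 rise with the dentate gyrus score over the 24 mice, Grik4 with the CA2 and CA3 score, and Grm4 and Cacng5 with the thalamic score.

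With the CA2 and CA3 score 16 relations passed, of which 3 were positive and 13 negative, but 3 passed without mice 44 and 12, namely those of Shisa9 (r = -0.673), Cnih3 (r = -0.635) and Cacng2 (r = 0.617). Grik4 had r = 0.795 and rho = 0.647 (permutation p = 0.00037 and 0.00253, adjusted 0.00587 and 0.0266, n = 24), and Shisa7, an AMPA and GABA-A receptor partner, r = -0.796 and rho = -0.591 (adjusted permutation p = 0.00561 and 0.0369). Without these mice r was 0.579 for Grik4 and -0.584 for Shisa7, which no longer passed. Neto1 (r = 0.682) and Cacng2 (r = 0.609) were the other positive relations. For CA1, Grm7 (r = -0.602, rho = -0.622, adjusted permutation p = 0.0141 and 0.0343) and Grik1 (r = 0.591, rho = 0.401, adjusted permutation p = 0.0441 and 0.189) passed with Pearson's r over all mice. Without mice 8 and 42 (Fkbp5Nex control) 7 genes passed, with r = 0.803 for Cnih3, -0.731 for Neto1, 0.697 for Shisa7, -0.696 for Grm7, -0.668 for Grik4, 0.620 for Grin3a and 0.602 for Gria3, whereas Grik1, at 0.381, did not.

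Markers of interneurons and glia gave further relations. With GABAergic interneuron markers, where 6 genes passed, Grik1 (GluK1), a kainate subunit of interneurons, had r = 0.724 and rho = 0.701 (adjusted permutation p = 0.00561 and 0.0124), Gria4 (GluA4) r = 0.708 and Grin2d (GluN2D), both of which interneurons express, r = 0.595, whereas Grin2a had r = -0.712 and rho = -0.713 (adjusted permutation p = 0.00626 and 0.0114). All 4 passed also without the 2 farthest mice. With astrocyte markers, where 7 genes passed, Grin2c, an NMDA subunit found in astrocytes, had r = 0.749 and rho = 0.818 (adjusted permutation p = 0.00454 and 0.00317, r = 0.603 without 2 mice), Grm2 r = 0.695 and Grm3 r = 0.665. Without mice 12 and 32 (Fkbp5Nex control), 1 of the 7 passed, Grm3 (r = 0.605), while Grm2 had r = 0.512. With oligodendrocyte markers 12 genes passed (6 without mice 44 and 68), led by Cnih3 (r = -0.784, rho = -0.805, adjusted permutation p = 0.00408 and 0.00428) and Neto1 (r = 0.765, rho = 0.656, adjusted permutation p = 0.00408 and 0.0266).

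Grm4 and Cacng5, genes of low level in hippocampus, were the 2 genes that passed for the score of thalamic neurons, from a region next to the hippocampus, over all mice. Grm4 had r = 0.806 and rho = 0.758 (permutation p = 0.00019 and 0.00035, adjusted 0.00452 and 0.0104) and Cacng5 r = 0.629 and rho = 0.631 (permutation p = 0.00352 and 0.00257, adjusted 0.0254 and 0.0266), with r = 0.701 and 0.537 without mice 8 and 78 (Fkbp5lox/lox ELS). Without these mice Cacng5 no longer passed (adjusted permutation p = 0.0865), and Cacng2 (r = 0.657), Grm3 (r = -0.613), Cnih3 (r = -0.592) and Shisa7 (r = -0.570) passed beside Grm4. With the 3 of the 8 markers that the study did not name, r was 0.798 and 0.689 (permutation p = 0.00021 and 0.00084). The lowest, median and highest levels of Grm4 were 4.64, 5.23 and 7.40 CPM in Fkbp5lox/lox controls, 5.36, 7.60 and 13.2 CPM in Fkbp5lox/lox ELS mice, 4.52, 6.67 and 9.14 CPM in Fkbp5Nex controls and 5.69, 6.23 and 10.6 CPM in Fkbp5Nex ELS mice. Cacng5 had medians of 5.06, 8.59, 5.86 and 6.23 CPM in the same order. Among Fkbp5lox/lox ELS mice, 3 of 6 for Grm4 and 4 of 6 for Cacng5 lay above all controls of that genotype, and the other mice overlapped with them. The log2 difference for ELS in Fkbp5lox/lox was 0.65 for Grm4 (SE 0.21, edgeR unadjusted p = 0.0045, adjusted p = 0.999) and 0.61 for Cacng5 (SE 0.23, unadjusted p = 0.0126) without surrogate variables, and 0.14 (SE 0.14) and 0.11 (SE 0.16) with them. Without surrogate variables and without mouse 8 both were 0.50, and without mice 8, 12 and 44 they were 0.59 and 0.62. Mouse 78, of the same group as mouse 8, was kept in these fits. Its summed thalamic markers were 301 CPM, beside 318 CPM in mouse 8. The summed thalamic markers had medians of 63.0 CPM in Fkbp5lox/lox controls, 120 CPM in Fkbp5lox/lox ELS mice, 90.7 CPM in Fkbp5Nex controls and 95.2 CPM in Fkbp5Nex ELS mice. The thalamic score differed by 1.27 with ELS in Fkbp5lox/lox (exact permutation p = 0.0238, adjusted 0.571). Most of the 8 markers are genes that the study named from these same mice. Among them are hub genes that the paper describes as higher after ELS in Fkbp5lox/lox mice. This score difference is therefore not independent of the choice of markers. The part of thalamic tissue in the levels of Grm4 and Cacng5 was not tested.

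**Figure D5:**
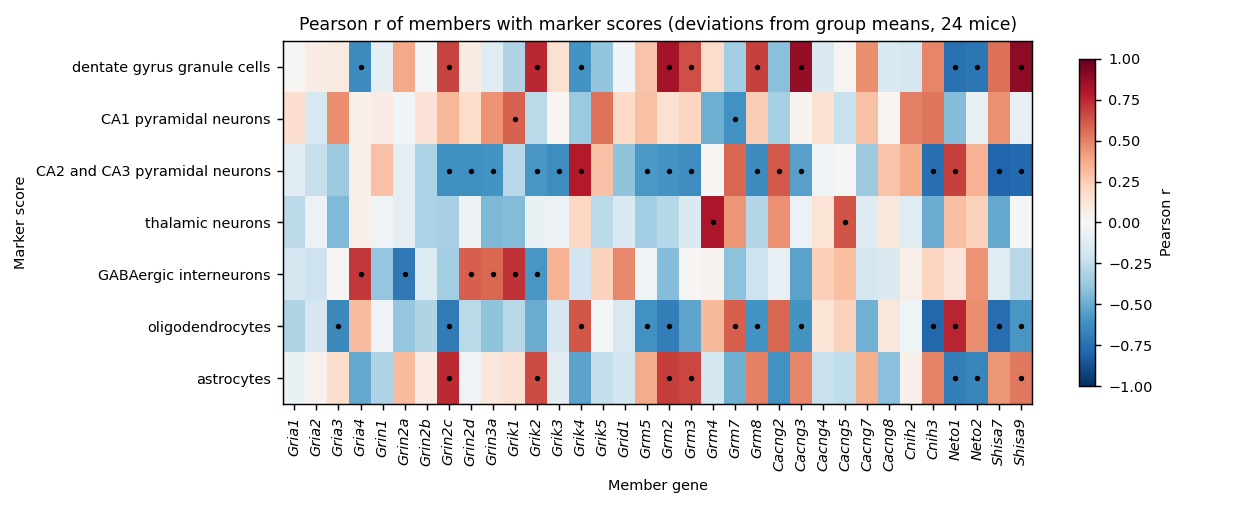
Pearson r of each of the 34 genes (columns) with 7 marker scores (rows) over 24 mice, on deviations from group means, with red for positive and blue for negative r and dots for relations past an adjusted p of 0.05. The dentate gyrus and the CA2 and CA3 rows carry 11 and 16 such relations, of which 5 and 3 passed without the 2 farthest mice.

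The marker scores themselves were compared between groups in 48 exact two-sided permutation tests over 12 marker lists, of which 2 reached 0.05 and none after adjustment. The dentate gyrus score was 0.971 lower in Fkbp5Nex than in Fkbp5lox/lox mice (exact permutation p = 0.00556, adjusted 0.267), and without mouse 12 the difference was -1.20 (adjusted p = 0.0123, exact permutation test). The thalamic score with ELS in Fkbp5lox/lox, given above, ranged from p = 0.00216 without mouse 68 (Fkbp5lox/lox ELS) to 0.0541 without mouse 44 in the same exact permutation test. That comparison is not independent of the choice of thalamic markers, as stated above.

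Partners of these receptors were examined in 4 further lists, and none of the 48 tested genes passed the FDR in edgeR in any of the 7 comparisons. Of 21 postsynaptic scaffolds and anchors, 19 had a positive and 2 a negative log2 difference for ELS over both genotypes, with a median of 0.0248 beside 0.0032 for all genes. Of all tested genes, 52.2% were positive in this comparison. Of 15 other AMPA receptor partners, 13 were positive and 2 negative, with a median of 0.0402, and of 10 trans-synaptic organisers 6 and 4, with a median of 0.0398. Of 4 other glutamate receptors, 2 had enough counts for the test, and both were negative for ELS. The scaffolds gave 15 positive and 6 negative for ELS in Fkbp5lox/lox mice, and 13 and 8 in Fkbp5Nex mice. For the other AMPA receptor partners these counts were 13 and 2, then 8 and 7, and for the organisers 7 and 3, then 5 and 5. Of all tested genes, 51.4% were positive for ELS in Fkbp5lox/lox and 52.3% in Fkbp5Nex mice. The smallest p belonged to Homer3, a scaffold that links group I metabotropic receptors to calcium stores, with a log2 difference of 0.48 (SE 0.11, edgeR unadjusted p = 0.000188, adjusted p = 0.954) for ELS in Fkbp5lox/lox and 0.11 (SE 0.11) in Fkbp5Nex mice. The interaction for Homer3 was 0.37 (SE 0.14, unadjusted p = 0.0171, adjusted p = 0.9995). Cbln1, the secreted organiser that bridges neurexins and delta receptors, followed with -0.70 (SE 0.20, edgeR unadjusted p = 0.00201, adjusted p = 0.591) for genotype after ELS and -0.19 (SE 0.20) under control rearing.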

How the data were processed

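Hippocampal mRNA of 24 female mice was sequenced, with groups and mouse numbers taken from the sample labels. The table that the authors deposited holds unnormalised counts of reads for each gene. Before that, reads were cleaned, aligned with HISAT2 2.0.5 and counted with featureCounts 1.5.0-p3, together with samples of another experiment up to the filtering step. The genome build, annotation and strand setting are not given in the sources used here, so genes that overlap others are uncertain. The authors used DESeq2 with surrogate variables. The paper also reports that a sample, which it does not name, was removed as an outlier in a principal component analysis. All 24 mice were kept here in the main fit.

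From these counts, a gene was tested if all mice of some group had 10 counts or more (16209 genes, among them all 34 members). edgeR 4.0.16 was used with TMM scaling, group means and 5 surrogate variables from sva 3.50.0, with Benjamini-Hochberg adjustment over all tested genes at an FDR of 0.02. Intervals are 95% and use the fit's degrees of freedom. DESeq2 1.42.0, no surrogate variables, other filters and scaling, an FDR of 0.05 and leaving out each mouse in turn were alternatives. The dentate gyrus covariate, the other lengths, the shortened thalamic list and the omission of 3 mice were added after seeing the data. R 4.3.3 and Python 3.11.15 were used.

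The 34 genes, the marker lists and the partner lists were chosen with earlier results of these data known. Genes given in full are the 2 with the smallest unadjusted p in each comparison, the one with the highest level per length in each class, and the 2 most closely related to each marker score. Partner genes are named by the smallest p. Genes listed beside them with an unadjusted p under 0.05, or as further relations, were chosen after their values were seen.

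FPKM is TMM-scaled CPM per kilobase of exon union in GENCODE vM21 (GRCm38). Log2 CPM used a prior count of 2. Marker scores are mean z-scores. The labels give no sequencing batch. On simulated data without added surrogate variation, the test recovered 94 of 100 genes changed by a log2 fold of 1 for genotype, 85 for ELS in Fkbp5lox/lox and 71 for the interaction, and 73, 53 and 30 of 100 at a log2 fold of 0.5. At 18347283 to 26555623 counts per mouse, genes such as Grm8 with 26 counts in 1 mouse carry large counting error.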

Additional observations from a re-analysis of the deposited data

Results flagged for a closer look

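Among 136 sets of 6 values (34 genes in 4 groups), 20 held a mouse far from the other 5. At this cutoff chance flags about 1 in 20 independent sets, or 6.8. The sets share the same mice, so they are not independent. The share over all tested genes is not given here, so the count does not set the 34 genes apart from others. In the Fkbp5lox/lox control group, mouse 44 gave 7 of the 20. It was the highest of its group for Grin2d (22.7 CPM, group median 14.95), Grin3a (99.1 CPM), Grik3 (57.3 CPM), Grid1 (85.2 CPM), Cnih3 (88.9 CPM), Shisa7 (246.5 CPM, group median 182) and Shisa9 (80.7 CPM). The same mouse had the lowest CA2 and CA3, oligodendrocyte and thalamic scores of all 24 mice. Their part in these values was not tested.

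In the Fkbp5lox/lox ELS group, mouse 8 was highest for Grik2 (136.4 CPM) and lowest for Neto2 (48.8 CPM), and mouse 68 lowest for Grm7 (59.3 CPM). Mouse 8 had the highest dentate gyrus score of the 24 mice. In the Fkbp5Nex control group, mouse 12, with the next highest dentate gyrus score, was highest for Grik2 (129.1 CPM) and Shisa9 (85.8 CPM), mouse 52 was lowest for Gria2 (832.7 CPM, group median 1097) and highest for Cnih2 (527.3 CPM), and mouse 42 highest for Cacng4 (26.4 CPM). In the Fkbp5Nex ELS group, mouse 60 was lowest for Gria4 (66.8 CPM) and highest for Grin2c (64.3 CPM, group median 37.5), mouse 62 lowest for Grin2b (481.6 CPM), and mouse 66 highest for Grm4 (10.6 CPM) and Cacng5 (11.1 CPM).

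The ELS difference of Grik4 differed between the genotypes by 0.22 on the log2 scale at an unadjusted p of 0.00552 in edgeR's interaction test, with an adjusted p of 0.9995.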

How the results depend on the processing

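The number of the 34 genes called for genotype moved from 0 to 1 (Grm2) with DESeq2's Wald test and at an FDR of 0.05, and lay between 0 and 1 over the fits without 1 mouse. In the other 6 comparisons it was 0 under every alternative. Over all genes, 19 were called for genotype, 70 with DESeq2, 50 at an FDR of 0.05, 3 without surrogate variables, 2 with the dentate gyrus score as covariate, 2 without mice 8, 12 and 44, and 2 to 32 with 1 mouse left out. Of the 238 relations with marker scores, 56 passed, and 31 without the 2 farthest mice. No marker score passed the adjusted threshold between groups, and with 1 mouse left out 0 to 1 did. Among the 2 genes with the smallest p in each comparison, fitted differences that changed sign were Grik2 for genotype (-0.1022 to 0.0094 with 1 mouse left out, the latter without mouse 12) and, with the dentate gyrus score as covariate, Neto2 for ELS (0.0127) and for ELS in Fkbp5Nex (0.0362), Grm2 under control rearing (0.18) and Grik4 under control rearing (-0.14). Other genes changed sign too, among them, for genotype under control rearing, Cacng3 (0.10) and Neto1 (-0.27) with that covariate and Grin2d (-0.02) without mice 8, 12 and 44, and, for genotype without surrogate variables, Shisa9 (-0.16). The cause was not tested. No paired analysis was possible because the replicate numbers are mouse numbers that no 2 groups share.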
